A study of Saccharomyces cerevisiae with 4 samples.

Results

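The vacuolar ABC transporters of budding yeast were followed through treatment with tauroursodeoxycholic acid (TUDCA), a bile acid conjugated to taurine. The set comprised 5 genes, taken by name as YBT1, BPT1, YCF1, NFT1 and VMR1 from the 7127 features of the count table. All cultures were of BY4742, a haploid α-mating laboratory strain with the genotype MATα his3Δ1 leu2Δ0 lys2Δ0 ura3Δ0. During exponential growth in YPD, which is rich in nutrients and glucose, cells were exposed to 5 mM TUDCA for 2 h (TUDCA, 2 libraries) or left without it (Ctrl, 2 libraries). The labels conflict on this point: the treatment field of Ctrl reads Ctrl and the growth protocol speaks of cultures with or without TUDCA, but the treatment protocol of all 4 samples, Ctrl included, names 5 mM TUDCA. Ctrl was taken here as untreated, and every comparison rests on that reading. What the Ctrl cultures received in place of TUDCA is not given in the sources used here. The comparison asked whether transcripts of the pumps that could move a bile acid into the vacuole change when cells meet one. The labels do not state whether the replicates came from separate cultures. The p-values therefore rest on the spread between these libraries alone, and that spread may be technical.

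ABC transporters are membrane pumps that use ATP to move substrates across a membrane. The subfamily that includes the mammalian multidrug resistance-associated proteins (MRP) carries organic anions, such as bile acids, bilirubin and conjugates of glutathione. In yeast, several of its members sit in the membrane of the vacuole, the acidic storage organelle, and pump these compounds and metal conjugates out of the cytosol. YBT1 encodes the bile acid pump. VMR1, its paralog from the whole-genome duplication, encodes a multidrug transporter. YCF1 encodes the pump for glutathione conjugates and cadmium, and BPT1 encodes a pump for bilirubin and glutathione conjugates that acts beside Ycf1. NFT1 is annotated as a putative transporter of the MRP subfamily.

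All 5 genes are long and none is overlapped by another feature, so none of their bases is shared with an annotated neighbour. Whether reads in them were lost in another way was not tested. YBT1 (YLL048C) spans chrXII:41280-46265 on the minus strand of build R64 and is 4986 bases long. BPT1 (YLL015W) spans chrXII:116432-121111 on the plus strand, 4680 bases. YCF1 (YDR135C) spans chrIV:723004-727551 on the minus strand, 4548 bases. VMR1 (YHL035C) spans chrVIII:27978-32756 on the minus strand, 4779 bases. NFT1 (YKR103W) spans chrXI:653080-656736 on the plus strand, 3657 bases. Each is longer than at least 95.8% of the features in the table. All sequences below are those of the RefSeq R64 assembly.

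The sequence after NFT1 is shown because it decides what the NFT1 count covers. In this reference the NFT1 reading frame ends at a stop codon, and the open reading frame YKR104W begins 99 bases further on. The annotation records that both are merged in other strain backgrounds. The stretch chrXI:656734-656838 on the plus strand is given with the NFT1 stop codon and the YKR104W start codon in capitals.
NFT1 to YKR104W: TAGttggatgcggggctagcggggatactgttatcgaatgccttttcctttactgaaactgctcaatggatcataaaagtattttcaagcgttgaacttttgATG
Its 105 bases make 35 codons in a single frame, and the stop codon of NFT1 is the 1 stop codon among them. The NFT1 count therefore covers the part of the merged gene up to and including that codon. The YKR104W count covers the part from its own start codon, and the 99 bases between lie in neither.

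The stretches before the start codons are shown because regulators of drug and stress responses act there. The 300 bases before the start codon of YBT1, VMR1 and YCF1 are given 5′ to 3′ on the strand of the gene, with matches to the searched motifs in capitals. They lie at chrXII:46266-46565 for YBT1, chrVIII:32757-33056 for VMR1 and chrIV:727552-727851 for YCF1, all on the minus strand. The outer part of the YCF1 stretch overlaps YDR136C, whose near end lies 159 bases from YCF1. The last stretch is from PDR5, the plasma membrane ABC gene that rose in TUDCA. It runs from 500 to 301 bases before the PDR5 start codon, at chrXV:619340-619539 on the plus strand, with only the matches to the drug resistance motifs in capitals.
YBT1: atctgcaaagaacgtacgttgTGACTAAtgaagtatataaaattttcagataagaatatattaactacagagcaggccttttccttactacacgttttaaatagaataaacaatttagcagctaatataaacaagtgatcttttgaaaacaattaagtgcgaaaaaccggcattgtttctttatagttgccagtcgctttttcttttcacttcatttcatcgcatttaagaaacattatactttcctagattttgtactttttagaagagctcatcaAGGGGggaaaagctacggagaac
VMR1: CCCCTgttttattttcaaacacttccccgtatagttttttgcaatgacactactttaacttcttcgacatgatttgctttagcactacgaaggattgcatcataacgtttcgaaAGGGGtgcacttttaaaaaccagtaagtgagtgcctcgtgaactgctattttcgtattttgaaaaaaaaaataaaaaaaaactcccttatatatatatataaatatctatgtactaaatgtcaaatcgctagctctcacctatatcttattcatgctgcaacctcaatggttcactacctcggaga
YCF1: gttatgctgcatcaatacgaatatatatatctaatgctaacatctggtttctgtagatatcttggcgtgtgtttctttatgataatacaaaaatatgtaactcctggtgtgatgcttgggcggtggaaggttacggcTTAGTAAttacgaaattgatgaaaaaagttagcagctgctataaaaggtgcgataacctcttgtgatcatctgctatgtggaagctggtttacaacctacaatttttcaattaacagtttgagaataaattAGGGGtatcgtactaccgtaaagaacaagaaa
PDR5: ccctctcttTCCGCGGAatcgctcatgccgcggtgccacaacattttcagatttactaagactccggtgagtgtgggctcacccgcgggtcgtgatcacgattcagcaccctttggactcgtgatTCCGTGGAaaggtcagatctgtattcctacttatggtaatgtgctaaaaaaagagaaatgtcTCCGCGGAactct

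The search covered 500 bases before the start codon on both strands. The pleiotropic drug response element, bound by Pdr1 and Pdr3, was searched as TCCGCGGA, TCCGTGGA and TCCGCGCA. None of the 5 windows held any of these, and the PDR5 window held 3 matches. These 3 motifs occur in 0.635%, 1.05% and 0.618% of 5987 windows of nuclear protein-coding genes. The element of the oxidative stress regulator Yap1 was searched as TTACTAA and TTAGTCA, found in 11.8% and 5.98% of windows. YCF1 had a match to TTACTAA on the opposite strand, 163 to 157 bases before its start codon. YBT1 had a match to TTAGTCA on the opposite strand, 279 to 273 bases before its start codon. The general stress element AGGGG, found in 34.1% of windows, matched in YBT1, YCF1 and VMR1. A match is only a run of letters and not a proven site, and no match says only that these letters are not in the window.

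Assigned counts per library ranged from 74080860 to 97133389. Of the 4 marker genes mutated in this strain, LEU2 and URA3 were at 0 counts in every library and LYS2 at no more than 2. HIS3, of which the his3Δ1 allele lacks an internal part, had 11172 to 17246 counts. Gene STE3, specific to α cells, had between 12483 and 20797 counts per library. The other α-specific genes checked had from 940 (MF(ALPHA)2) to 180017 (MF(ALPHA)1). Genes specific to cells of mating type a were low but not absent, from 98 (AGA2) to 3072 counts (STE6). STE6 is also among the plasma membrane ABC genes below. Ctrl replicate 2 differed most from the rest, and its difference followed gene length. Across 5386 genes with a mean of at least 10 CPM (counts scaled to the library total and with edgeR's TMM factors, here and below), the log2 difference of Ctrl replicate 2 from Ctrl replicate 1 had a Spearman correlation of -0.481 with gene length. The genes share these libraries, so this is a description. The fold changes of named genes and the medians of gene lists below are therefore also given without this library where that changes them by over 1.5 times.

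The 5 genes differed over 10-fold in level, and their order was the same in every library (plot of levels by library). Levels are given as CPM per kilobase of gene length, so that genes can be compared, and every mean is over n = 2 libraries with its SD. YBT1 was the highest, at 61.7 and 64.9 CPM per kb in the TUDCA libraries and 58.2 and 57.6 CPM per kb in the Ctrl libraries. Its mean over the libraries was above that of 54.8% of 5878 protein-coding genes tested, so the bile acid pump was a gene of middling level in rich medium. YCF1 came next, at 52.6 and 55.2 CPM per kb in TUDCA and 49.6 and 46.6 CPM per kb in Ctrl. BPT1 was at 37.3 and 38.0 CPM per kb in TUDCA and 36.0 and 29.7 CPM per kb in Ctrl. VMR1 was at 15.3 and 15.7 CPM per kb in TUDCA and 15.0 and 13.6 CPM per kb in Ctrl. NFT1 was the lowest, at 4.84 and 4.96 CPM per kb in TUDCA and 4.18 and 4.48 CPM per kb in Ctrl, above 4.93% of the protein-coding genes tested. The 4 values of each gene did not overlap those of its neighbours in this order.

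**Figure D1:**
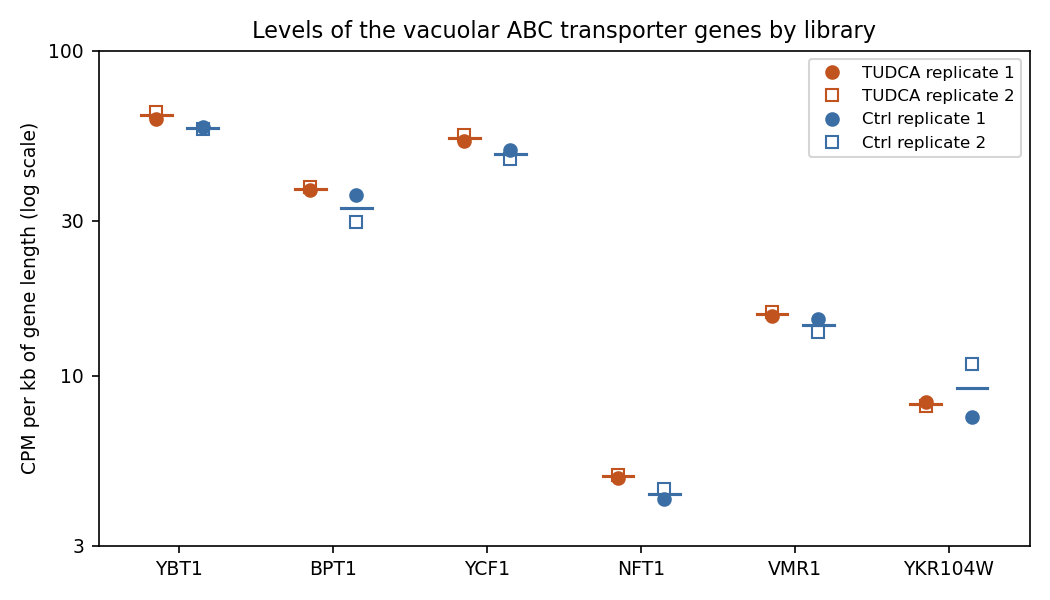
Level of each gene in CPM per kb of gene length, on a log axis, with 1 symbol per library and a bar at the mean of each group of 2. The order from YBT1 down to NFT1 holds in all 4 libraries, and YKR104W, the reading frame after NFT1, is higher in Ctrl replicate 2 than in the other libraries.

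The makeup of the set differed little between the groups. YBT1 made up 35.9% and 36.3% of the summed level per kb of the 5 genes in the TUDCA libraries, against 35.7% and 37.9% in the Ctrl libraries. YCF1 made up 30.6% and 30.9% in TUDCA, against 30.4% and 30.6% in Ctrl. BPT1 made up 21.7% and 21.3% in TUDCA, against 22.1% and 19.6% in Ctrl. VMR1 made up 8.91% and 8.78% in TUDCA, against 9.18% and 8.94% in Ctrl. NFT1 made up 2.82% and 2.77% in TUDCA, against 2.57% and 2.95% in Ctrl. VMR1 was the 1 gene whose shares did not overlap between the groups, lower in TUDCA by less than the Ctrl libraries differed from each other. The values of YBT1, BPT1 and NFT1 in TUDCA lay inside the range of the Ctrl libraries, and for YCF1 the value of 30.9% lay above it. The level of YBT1 per kb was 4.03 and 4.13 times that of its paralog VMR1 in TUDCA, and 3.89 and 4.24 times in Ctrl.

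For the bile acid pump gene YBT1, no change passed the test. It was at 307 and 323 CPM in TUDCA and 290 and 287 CPM in Ctrl, averaging 315 ± 11.3 CPM in TUDCA and 289 ± 2.15 CPM in Ctrl (SD, n = 2 each). Both TUDCA libraries lay above both Ctrl libraries. The fold was 1.09, a log2 fold change of 0.13 (SE 0.0834), with a 95% interval from -0.066 to 0.32. The adjusted p was 0.574 in edgeR's quasi-likelihood test, with p adjusted by Benjamini and Hochberg's method over 6420 genes. On the fold scale the interval ran from 0.955 to 1.25. In bulk RNA, fewer cells that express a gene and less of its RNA per cell cannot be told apart.

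VMR1, the paralog of YBT1, did not pass either. It was at 73.1 and 75.1 CPM in TUDCA and 71.5 and 64.9 CPM in Ctrl. The groups did not overlap, but TUDCA replicate 1 was nearer to Ctrl replicate 1 than the Ctrl libraries were to each other. The log2 fold change was 0.12 (SE 0.0809, 95% interval -0.067 to 0.31, edgeR adjusted p = 0.580). Without Ctrl replicate 2 it was 0.054.

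The glutathione conjugate pump genes had slightly higher fitted values, and neither passed. YCF1 was at 239 and 251 CPM in TUDCA and 225 and 212 CPM in Ctrl, with no overlap. Its log2 fold change was 0.17 (SE 0.0835, 95% interval -0.028 to 0.36, edgeR adjusted p = 0.544). BPT1 was at 175 and 178 CPM in TUDCA and 168 and 139 CPM in Ctrl, a mean of 176 ± 2.27 CPM in TUDCA and 154 ± 20.6 CPM in Ctrl (SD, n = 2 each). The spread of BPT1 lay in Ctrl replicate 2, which was 0.27 below Ctrl replicate 1 on the log2 scale, more than the difference between the groups. The log2 fold change of BPT1 was 0.20 (SE 0.104, 95% interval -0.042 to 0.44, edgeR adjusted p = 0.546), and 0.070 without Ctrl replicate 2.

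NFT1 had few counts beside the others, between 1131 and 1568 per library. It was at 17.7 and 18.1 CPM in TUDCA and 15.3 and 16.4 CPM in Ctrl, so that the groups did not overlap. The log2 fold change was 0.18 (SE 0.106, 95% interval -0.069 to 0.43, edgeR adjusted p = 0.556). In NFT1, unlike the other 4 genes, Ctrl replicate 2 was above Ctrl replicate 1, by 0.098 on the log2 scale.

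YKR104W, the reading frame after the NFT1 stop codon shown above, took other values than NFT1. It was at 7.62 and 7.44 CPM in TUDCA and 6.87 and 10.1 CPM in Ctrl, and the groups overlapped. Its log2 fold change was -0.17 (95% interval -0.62 to 0.27, edgeR adjusted p = 0.698), and 0.13 without Ctrl replicate 2. Per kb of length, YKR104W was 1.71 and 1.63 times as high as NFT1 in TUDCA and 1.78 and 2.44 times as high in Ctrl. The ratio was thus lower in both TUDCA libraries than in both Ctrl libraries, and the gap between the Ctrl libraries was larger than that between Ctrl replicate 1 and either TUDCA library.

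Of the 5 genes, 0 passed edgeR's test at an adjusted p of 0.05, beside 0.0935% of the 6420 genes tested. None had an unadjusted p under 0.05, beside 8.32% of all genes, and 0 of the 5 were called by DESeq2 (0.895% of all genes), by limma-voom (0.0935%) or by limma applied to the deposited normalized values (0.0935%). The upper ends of the 95% intervals lay between 1.24-fold (VMR1) and 1.36-fold (BPT1) and the lower ends between 0.953-fold (NFT1) and 0.981-fold (YCF1). In all 5 both TUDCA libraries lay above both Ctrl libraries, beside 23.7% of all genes tested. The median log2 fold change of the 5 was 0.17, beside -0.0037 for all genes. Summed over the 5 genes, the level was 812.4 and 845.9 CPM in TUDCA and 770.7 and 719.5 CPM in Ctrl.

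This shared shift lay on a trend with gene length that ran through the whole transcriptome. Across 5386 genes, the log2 fold change of TUDCA over Ctrl had a Spearman correlation of 0.598 with gene length, given as a description since the genes share 4 libraries. The median was -0.14 for 617 genes of up to 500 bases, -0.0015 for 1242 genes of over 1000 to 1500 bases, and 0.15 for 118 genes of over 4000 to 5000 bases. In that last class, which holds 4 of the 5 pump genes, both TUDCA libraries lay above both Ctrl libraries in 69.5% of the genes. For genes of the pumps' own length, the trend alone gave a TUDCA over Ctrl difference between 0.13 (NFT1) and 0.14 (YBT1) on the log2 scale.

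**Figure D2:**
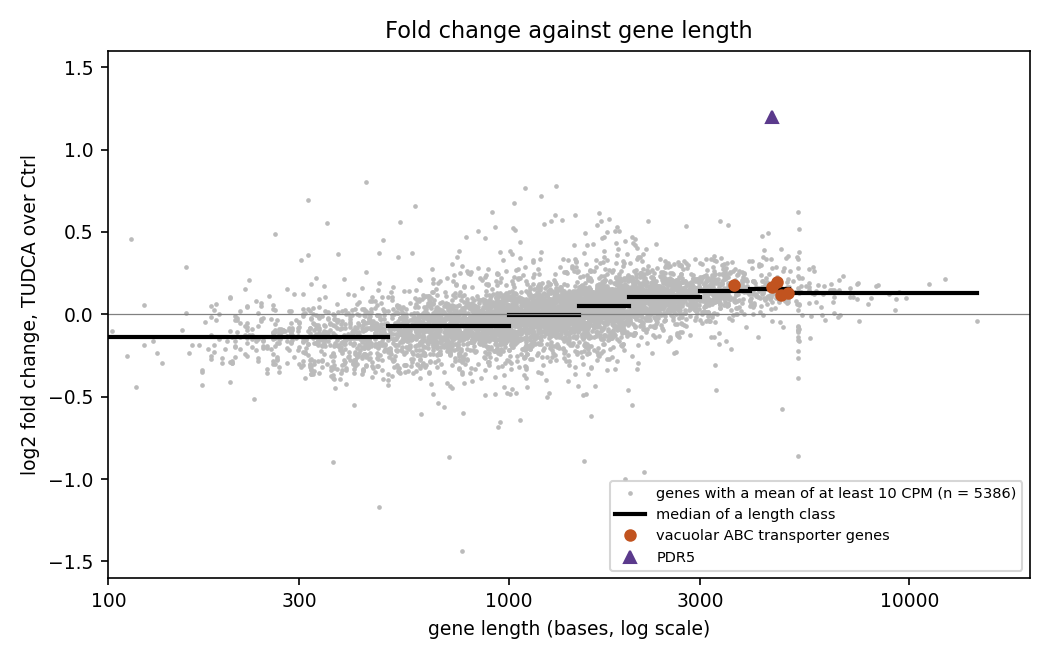
Log2 fold change of TUDCA over Ctrl against gene length in bases (log axis) for genes with a mean of at least 10 CPM, with black bars at the median of each length class. The 5 vacuolar ABC transporter genes lie between 0.12 and 0.20, beside medians of 0.14 and 0.15 for their length classes, and PDR5 lies at 1.20.

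With that trend removed as an offset in each library, the fitted values of the 5 genes lay around 0. The log2 fold change was -0.015 for YBT1, 0.064 for BPT1, 0.027 for YCF1, 0.040 for NFT1 and -0.019 for VMR1, with a median of 0.027. Their groups then separated with TUDCA above Ctrl in 0 of the 5, beside 19.3% of all genes. Before the offsets, the 5 values lay above those of 79.0% (VMR1) to 90.1% (BPT1) of all genes, and with them above 42.7% (VMR1) to 72.0% (BPT1). The fitted trend at the length of YBT1 differed between libraries of a group, at 0.037 and 0.10 in the TUDCA libraries and 0.0085 and -0.15 in the Ctrl libraries. Ctrl replicate 2 thus lay farthest from 0 at that length, but the trend was not confined to it. Against Ctrl replicate 1 alone, the log2 difference of TUDCA had a Spearman correlation of 0.403 with gene length. For TUDCA replicate 2 minus TUDCA replicate 1 it was 0.271. The part of treatment, culture, RNA or library preparation in the trend was not tested.

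**Figure D3:**
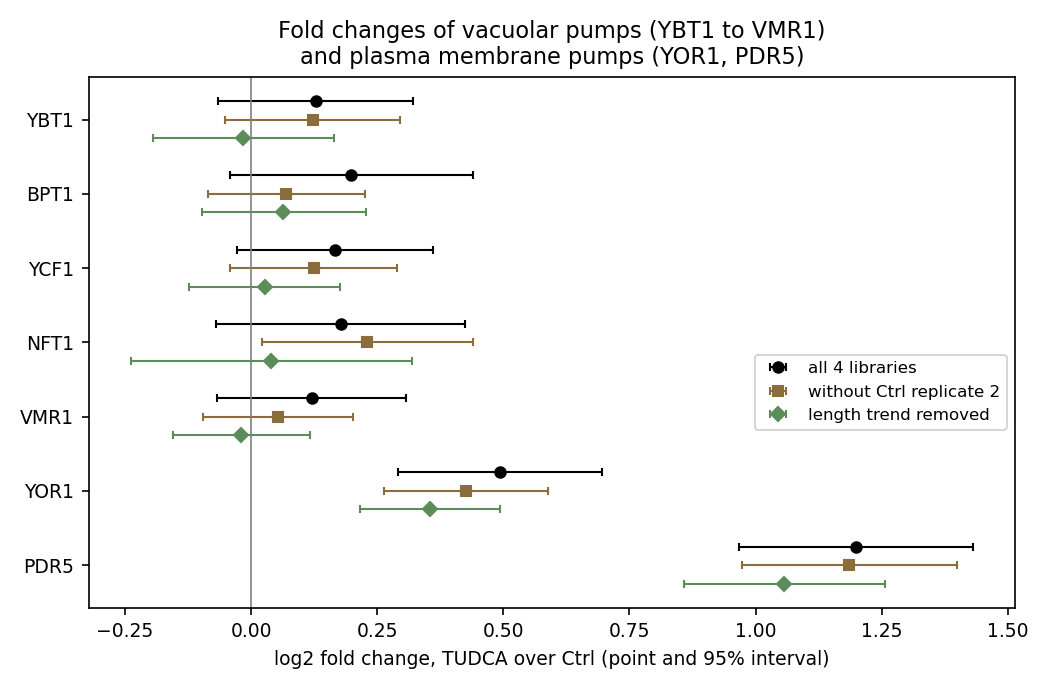
Log2 fold change of TUDCA over Ctrl with 95% intervals from edgeR for the 5 vacuolar pump genes and the plasma membrane pump genes YOR1 and PDR5, with all 4 libraries, without Ctrl replicate 2 and with the length trend removed. The intervals of all 5 vacuolar genes hold 0 with all 4 libraries and with the trend removed, and that of NFT1 does not hold 0 without Ctrl replicate 2 (edgeR adjusted p = 0.582), while those of PDR5 and YOR1 lie above 0 in all 3 fits.

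The call on 3 genes depended on Ctrl replicate 1. Without it, BPT1 (log2 fold change 0.35, edgeR adjusted p = 0.00326), YCF1 (0.22, adjusted p = 0.0424) and VMR1 (0.20, adjusted p = 0.0391) passed, while YBT1 (0.15) and NFT1 (0.14) did not. In that fit Ctrl replicate 2 is the lone Ctrl library, its spread is taken to be that of the TUDCA pair, and 17.6% of all genes passed as higher in TUDCA. Over the alternatives run, the edgeR, DESeq2 and limma adjusted p ran from 0.00326 to 1.00 for BPT1, from 0.0424 to 1.00 for YCF1 and from 0.0391 to 1.00 for VMR1.

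Within the set, all 5 genes were above their own mean in both TUDCA libraries, and the profiles differed most in the Ctrl libraries (plot of profiles). Pearson correlations of pairs over the 4 libraries ran from 0.433 (BPT1 and NFT1) to 0.992 (BPT1 and VMR1). After each gene's log2 CPM was centred on its mean over the 4 libraries, VMR1 and YCF1 were the nearest pair (Euclidean distance 0.0613), and YBT1 and YCF1 were close behind (0.0655). BPT1 and NFT1 were the farthest apart (0.265). The paralogs YBT1 and VMR1 were 0.0914 apart. BPT1 was the lowest of the 5 in Ctrl replicate 2, at 0.24 below its own mean, and NFT1 the lowest in Ctrl replicate 1, at 0.14 below its own.

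**Figure D4:**
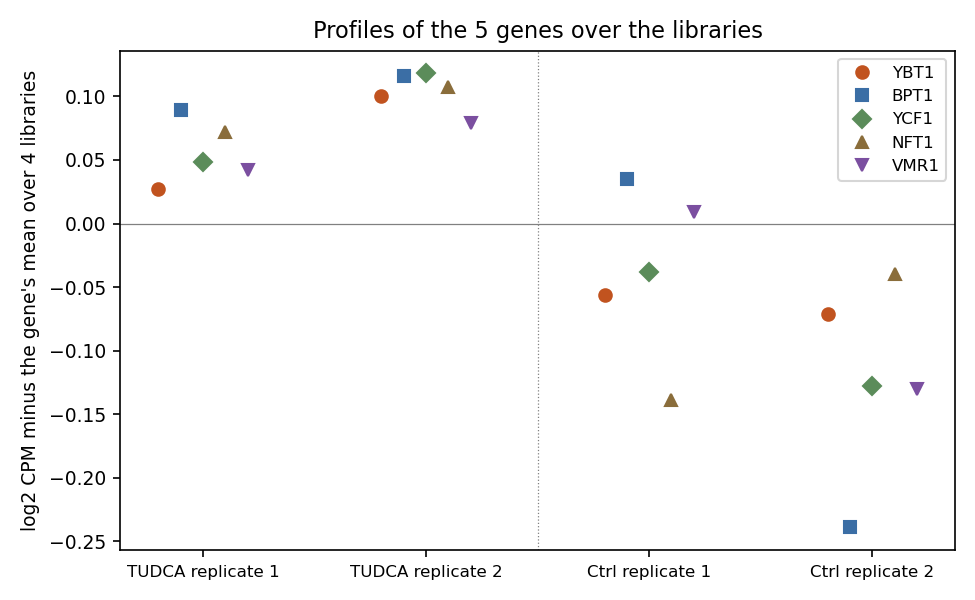
Log2 CPM of each gene minus its own mean over the 4 libraries, with 1 symbol per gene and library. All 5 genes are above their mean in both TUDCA libraries, from 0.027 (YBT1, TUDCA replicate 1) to 0.12 (YCF1, TUDCA replicate 2), and they spread most widely in the Ctrl libraries.

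Many unrelated genes had a similar profile. By Euclidean distance, some were nearer to the mean profile of the set than most of its members were. The nearest of 5381 other genes with a mean of at least 10 CPM were BLM10, which encodes a proteasome activator, NAM8, a splicing factor gene, and NAM9, a mitochondrial ribosomal protein gene, at distances of 0.0191, 0.0198 and 0.0208. Only YCF1, at 0.0168, was nearer than these, and 146 other genes were nearer than YBT1 and 1322 nearer than BPT1. For single members the nearest genes were NAB3 for YBT1, HOB2 for BPT1, BEM4 for YCF1, FKS3 for NFT1 and FAT1 for VMR1, at distances from 0.00692 (NAB3) to 0.0245 (FKS3). By correlation in place of distance, the genes most like the mean profile were SAC1, DIE2 and TOM1. These likenesses rest on 4 libraries and describe them only.

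The features beside the 5 genes did not pass the test with all 4 libraries. They were LDB18 and YLL047W beside YBT1, SDC25 and EMC6 beside BPT1, and YDR133C and YDR136C beside YCF1. FLO10 and YKR104W lie beside NFT1, and MUP3 and YHL034W-A beside VMR1. Their log2 fold changes ran from -0.354 (YDR133C) to 0.151 (FLO10). Without Ctrl replicate 2 they ran from -0.241 (YHL034W-A) to 0.163 (FLO10). In that fit YDR133C was at -0.175, LDB18 at -0.000 (-0.223 with all libraries) and YDR136C at -0.043 (-0.332). SDC25 turned to -0.041 (0.067), and MUP3 was at 0.069 (0.112). Without Ctrl replicate 1 the log2 fold changes of these features ran from -0.525 (YDR136C) to 0.197 (SDC25). Of these 10, FLO10 was higher in each TUDCA library than in either Ctrl library, and 4 (EMC6, YDR133C, YDR136C and YHL034W-A) were lower, beside 23.7% and 23.9% of all genes. YDR136C had only 15 to 27 counts per library and YLL047W 67 to 87. Other annotation covered 89.1% of YLL047W and 96.3% of YHL034W-A. EMC6, a subunit gene of an ER membrane complex that starts 210 bases after BPT1, was at 69.5 and 68.8 CPM in TUDCA and 74.9 and 81.3 CPM in Ctrl, a log2 fold change of -0.18 (edgeR adjusted p = 0.544), or -0.11 without Ctrl replicate 2. It is 327 bases long.

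Among ABC transporters of other membranes, 1 plasma membrane pump gene was called, and it was higher in TUDCA. PDR5, the main drug efflux pump and a target of Pdr1 and Pdr3, was at 704 and 783 CPM in TUDCA and 327 and 321 CPM in Ctrl. The groups were far apart, with a log2 fold change of 1.20 (SE 0.0999, 95% interval 0.97 to 1.43, edgeR adjusted p = 0.00465), and 1.06 with the length trend removed (adjusted p = 0.0218). PDR5 passed under every alternative run, with adjusted p from 3.14e-29 (DESeq2) to 0.0231 (length and GC offsets). YOR1, the plasma membrane member of the same subfamily as the vacuolar pumps, was at 197 and 208 CPM in TUDCA and 151 and 137 CPM in Ctrl. Its log2 fold change of 0.49 (95% interval 0.29 to 0.70) did not pass (edgeR adjusted p = 0.184), though it did with DESeq2 (adjusted p = 0.000553). It also passed without Ctrl replicate 1 (edgeR adjusted p = 0.000237) and without Ctrl replicate 2 (edgeR adjusted p = 0.0211), and its adjusted p ran from 4.58e-05 with the replicate block to 0.469 over all alternatives run. PDR5 and YOR1, at 4536 and 4434 bases, are as long as the vacuolar pump genes. Whether their fold changes differ from those of the vacuolar genes was not tested.

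Of 10 plasma membrane ABC genes tested, 1 rose (PDR5), 0 fell and 9 did not pass, with a median log2 fold change of 0.13 that was -0.011 with the length trend removed and 0.051 without Ctrl replicate 2. Of 6 ABC genes of other internal membranes, 0 passed, and ATM1, which encodes the mitochondrial exporter needed for iron-sulfur proteins, had the smallest p (log2 fold change 0.13, edgeR adjusted p = 0.581). Without Ctrl replicate 2 the value of ATM1 was 0.032 and the median of the 6 was 0.026, against 0.10 with all libraries. Of 7 soluble ABC proteins, 0 passed, and GCN20, a regulator of the kinase Gcn2, had the smallest p (0.14, edgeR adjusted p = 0.580). Without Ctrl replicate 2 it was 0.053, and the median of the 7 was -0.003, against 0.014 with all libraries.

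Regulators and partners of the pumps did not pass either. Of 12 genes of drug resistance and Yap1-type regulators, 0 passed, and 12 had fitted values above 0, beside 3145 of 6420 over all genes. Their median was 0.11, or 0.041 with the length trend removed and 0.038 without Ctrl replicate 2. Their median length was 2397 bases, and genes of over 2000 to 3000 bases had a median of 0.103. STB5, a zinc cluster transcription factor gene, had the smallest p, at 42.1 and 43.4 CPM in TUDCA and 34.7 and 34.9 CPM in Ctrl (log2 fold change 0.29, edgeR adjusted p = 0.496). YAP1, whose product activates YCF1, was at 142 and 141 CPM in TUDCA and 129 and 129 CPM in Ctrl (log2 fold change 0.13, edgeR adjusted p = 0.551). Of 14 genes of glutathione synthesis and use, 0 passed, with a median of -0.062 that was -0.011 with the length trend removed and -0.020 without Ctrl replicate 2. GTO3, a glutathione transferase gene, had the smallest p, at 10.5 and 9.09 CPM in TUDCA and 12.1 and 12.6 CPM in Ctrl (log2 fold change -0.33, edgeR adjusted p = 0.544).

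Other genes of the vacuolar membrane showed no called change. Of 20 genes of the vacuolar proton pump and its assembly, which acidifies the organelle, 0 passed. Their median was -0.075 at a median length of 675 bases, -0.030 with the length trend removed and -0.049 without Ctrl replicate 2. VMA4, a subunit gene, had the smallest p (log2 fold change -0.23, edgeR adjusted p = 0.544), with -0.11 without Ctrl replicate 2, and another feature covered 66.5% of it. Of 26 genes of other vacuolar membrane transporters, 0 passed, with a median of 0.020, or 0.004 with the length trend removed. VNX1, a vacuolar cation exchanger gene, had the smallest p, at 108 and 108 CPM in TUDCA and 97.0 and 81.5 CPM in Ctrl (log2 fold change 0.27, edgeR adjusted p = 0.544). Without Ctrl replicate 2 the value of VNX1 was 0.155. In these 7 lists, 95 genes were tested and edgeR called 1 (PDR5), beside 0.0935% of all genes. An unadjusted p under 0.05 was found for 7 of the 95, beside 8.32% of all genes. DESeq2 called 3, all plasma membrane ABC genes, beside 0.895% of all genes. Each of the limma fits called 1, beside 0.0935%. Without Ctrl replicate 1 the median was 0.287 for plasma membrane ABC genes, 0.213 for those of other internal membranes and 0.000 for soluble ABC proteins. It was 0.152 for the regulators, -0.023 for glutathione genes, -0.118 for the proton pump and 0.041 for other vacuolar transporters. For all genes it was 0.005. The length trend was not removed in that fit.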

How the data were processed

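RNA of 4 libraries was measured by stranded, poly(A)-selected sequencing, per the labels. The deposited table holds raw counts per gene for each library. Reads were aligned with STAR 2.5.4b and counted with featureCounts 1.6.0 on build R64, and DESeq2 1.26.0 was used, per the submitters' processing notes. In the deposited signal tables each library's counts were scaled by a single size factor, as the constant ratio between the tables shows. The multimapping rule, strand setting and annotation release are not given in the sources used here. Of 7127 features, 6047 matched RefSeq R64 genes by locus tag.

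Counts were tested in R 4.3.3 with edgeR 4.0.16 (filterByExpr at a minimum count of 10, TMM, quasi-likelihood F test, Benjamini-Hochberg at 0.05), which kept 6420 genes, all 5 pump genes among them. Alternatives used DESeq2 1.42.0, limma 3.58.1 with log2(value + 1) of the deposited values, other scalings, no filter, left-out libraries, a replicate block and offsets for length and GC (splines fitted per library). The script was tested on simulated data. The members and lists were chosen with earlier results of these data known. Named genes were the members, their flanking features, PDR5, YOR1, the genes called or with the smallest p in each list, and the nearest profiles. YAP1 falls outside this rule and was named for its role after its values were seen. Intervals cover counting error and the spread between libraries.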

Additional observations from a re-analysis of the deposited data

How the results depend on the processing

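Over 14 alternatives each, the log2 fold change of NFT1 kept its sign and did not pass, with values from 0.036 to 0.23, and that of BPT1 and YCF1 kept its sign. YBT1 turned to -0.015 with length offsets and to -0.020 with length and GC offsets, and VMR1 to -0.019 and -0.016. Leaving out 1 library gave 0.091 to 0.16 for YBT1, 0.070 to 0.35 for BPT1, 0.12 to 0.22 for YCF1, 0.14 to 0.23 for NFT1 and 0.054 to 0.20 for VMR1, and 0 to 3 of the 5 genes passed, the 3 without Ctrl replicate 1. The median of the 5 was 0.12 to 0.20 with a library left out, 0.12 with upper-quartile scaling (median of all genes -0.048), 0.21 with library totals (0.040), 0.027 with length offsets and 0.021 with length and GC offsets. TUDCA lay above Ctrl in 0 of the 5 with either offset. YKR104W turned to 0.13 without Ctrl replicate 2, with a range from -0.41 to 0.13 over the libraries left out.

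Over all genes, 2 were higher and 4 lower in TUDCA. The counts were 30 and 29 with DESeq2, 1 and 4 with upper-quartile scaling, and 2 to 1139 higher and 5 to 871 lower with a library left out, the most without Ctrl replicate 1. They were 24 and 19 without Ctrl replicate 2 and 12 and 10 without TUDCA replicate 2. The cause was not tested. Replicate numbers are shared by the groups, and same-numbered libraries deviated together (r = 0.334 across 5657 genes), but 2 pairs do not establish a pairing. With the replicate block 191 genes were higher and 162 lower, and 0 of the 5 passed. Ranking genes by correlation in place of distance kept 0 of the 3 nearest profiles. Coding-sequence length gave the same levels per kb. The lowest count among the 5 genes was 1131 (NFT1), and the effect of depth was not tested.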
